A study of Mus musculus with 11 samples.

Results

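The baseline contrast of c-Fos knockdown with control was examined in the dentate gyrus, the part of the hippocampus whose principal cells are granule neurons. It comprised 6 of the 11 ATAC-seq libraries of the study, and they were selected by their group labels alone: 3 shRNA-cFos E0 libraries and 3 shRNA-Ctrl E0 libraries. E0 is the state whose deposited lists are named as sham. All mice were C57BL/6, adult and 8 weeks old, and each library came from 1 animal. Both groups, controls included, had received an adeno-associated virus (AAV) that expresses a short hairpin RNA, directed at c-Fos in 1 group and a control hairpin in the other. The serotype, the promoter that drives the hairpin and the share of cells infected are not given in the sources used here, so the cells that carried the knockdown are not known.

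c-Fos is a basic leucine zipper protein that pairs with Jun proteins to form AP-1, a transcription factor that binds short palindromic motifs, many of them in enhancers. Its gene is an immediate early gene: it is low in resting neurons and rises within minutes of activity. ATAC-seq reads out accessible DNA through the insertion of adapters by a transposase, and a peak marks a stretch where insertions pile up. A contrast at E0 therefore asks how peaks differ between mice with and without the c-Fos hairpin in the sham state. The peak lists hold no RNA or protein level, so neither the depth of the knockdown nor the makeup of the tissue by marker genes was analysed here.

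Each deposited list gives peaks in mm9 coordinates with a score from the peak caller. The scale of the score is not stated, so it served to rank peaks within a list. The score percentile used below is the rank of a peak within its own list, with values near 100 for the highest-scoring peaks. Lists were shortened to the same number of peaks, 25145, the length of the shortest list on chromosomes 1 to 19 and X. Overlapping peaks from the 11 shortened lists (1 bp was enough) were joined into regions. A library is said to call a region if at least 1 of its peaks lies there.

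Shortening removed very different parts of the 6 lists. The shRNA-Ctrl E0 lists held 25145, 28391 and 29519 peaks in replicates 1, 2 and 3, of which 100%, 88.6% and 85.2% were kept. The shRNA-cFos E0 lists held 33134, 74432 and 28417 peaks, of which 75.9%, 33.8% and 88.5% were kept. The last peak kept had a score of 50, 54.75 and 57.89 in the shRNA-Ctrl lists, and of 66.31, 162.22 and 55.44 in the shRNA-cFos lists. The first peak left out scored 66.29, 162.21 and 55.44 in shRNA-cFos and 54.75 and 57.89 in shRNA-Ctrl replicates 2 and 3, so the cut fell between peaks of nearly equal score. Replicate 2 of shRNA-cFos E0 stood apart in the number of peaks deposited. Read depth is unknown, and lists of equal length do not make libraries of equal depth.

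**Figure D1:**
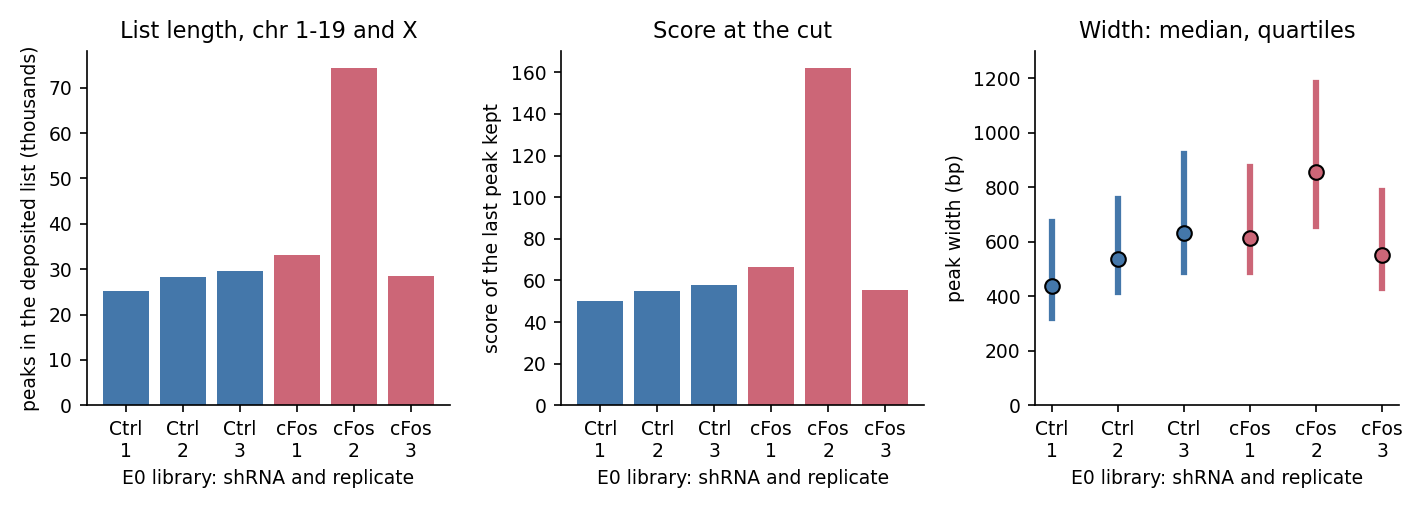
Shown for each of the 6 E0 libraries are the number of peaks in the deposited list, the score of the last of the 25145 peaks kept, and the width of the peaks kept (bp; points are medians, lines span the quartiles). Replicate 2 of shRNA-cFos has the highest value in each panel, with 74432 peaks, a score of 162.22 at the cut and a median width of 856 bp.

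Peak widths differed between mice within both groups. The median width of the peaks kept was 612, 856 and 552 bp in shRNA-cFos E0 and 438, 536 and 633 bp in shRNA-Ctrl E0. The groups overlapped, since replicate 3 of shRNA-Ctrl had wider peaks than replicates 1 and 3 of shRNA-cFos. The group means were 673 ± 161 bp and 536 ± 97.5 bp (SD, n = 3 each). The difference of 138 bp lay below the SD of shRNA-cFos and above that of shRNA-Ctrl (two-sided exact permutation p = 0.4). The smallest p that 3 against 3 allow is 0.1. Without shRNA-cFos replicate 2 the difference was 46.3 bp (exact permutation p = 0.7).

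The length of DNA covered followed the widths. The shRNA-cFos lists covered 18.6, 24.9 and 16.6 Mb and the shRNA-Ctrl lists 14.0, 16.2 and 19.3 Mb, a difference of 3.56 Mb between means (exact permutation p = 0.4), and 1.15 Mb without shRNA-cFos replicate 2. Peaks wider than 1 kb made up 18.2%, 37.2% and 13.7% of the shRNA-cFos lists and 10.3%, 13.0% and 21.0% of the shRNA-Ctrl lists. The mean difference was 8.27 percentage points (exact permutation p = 0.4), and 1.21 points without that replicate. Peaks on chromosome X made up 3.36%, 2.97% and 3.58% of the shRNA-cFos lists and 3.89%, 4.01% and 3.25% of the shRNA-Ctrl lists (difference -0.41 points, exact permutation p = 0.3). All 4 of these per-library tests had a Benjamini-Hochberg adjusted p of 0.4.

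Width rose with score in every list, and the lists differed in width at each rank. In the lowest score quartile of a list the median width was 464, 642 and 399 bp in shRNA-cFos replicates 1 to 3 and 286, 387 and 456 bp in shRNA-Ctrl replicates 1 to 3. In the highest it was 1042, 1286 and 948 bp against 869, 937 and 1114 bp. Replicate 2 of shRNA-cFos had the widest peaks in both and replicate 1 of shRNA-Ctrl, the shortest list, the narrowest. In the lowest quartile the order of the widths was that of list length. In the highest, shRNA-Ctrl replicate 3, with 29519 peaks in its list, had wider peaks than shRNA-cFos replicate 1, with 33134. The part of list length in the width differences was not tested.

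The 6 lists resembled each other about as much across the shRNA groups as within them. The base-pair Jaccard index, the length covered in both lists divided by the length covered in either, was 0.503, 0.517 and 0.462 for the pairs within shRNA-cFos E0 and 0.458, 0.464 and 0.469 within shRNA-Ctrl E0. Between groups it ran from 0.383 to 0.509, and the lowest pair was shRNA-cFos replicate 2 with shRNA-Ctrl replicate 1, the longest and the shortest list. The mean was 0.479 over the 6 pairs within groups and 0.465 over the 9 pairs between them (difference 0.0136, one-sided exact permutation p = 0.2, smallest possible 0.1). Without shRNA-cFos replicate 2 the difference turned to -0.00512 (exact permutation p = 0.7).

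A core of accessible regions was common to all 6 mice. Of 48490 regions called in at least 1 E0 library, 11618 (24.0%) were called in all 6, and 18267 (37.7%) in 1 library only. Regions called in all 6 were wide, with a median of 1355 bp, against 452 bp for regions called in 1 library; a region joined from more lists can also span more. All 3 shRNA-cFos libraries called 15706 regions and all 3 shRNA-Ctrl libraries 13899, a ratio of 1.13.

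The regions that separated the groups completely were few. All 3 shRNA-cFos E0 libraries and no shRNA-Ctrl E0 library called 569 regions, 1.17% of the regions called at E0. The opposite pattern was found for 248 regions, 0.511% of them. These shares describe the contrast and carry no test for a single region, since 3 against 3 cannot reach an exact p under 0.1. The ratio of the counts, 2.29, is larger than that of the regions called in all 3 libraries of each group. Patterns close to complete separation were more common: 1801 regions were called in 2 shRNA-cFos libraries and no shRNA-Ctrl library, and 1481 in 2 shRNA-Ctrl libraries and no shRNA-cFos library.

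**Figure D2:**
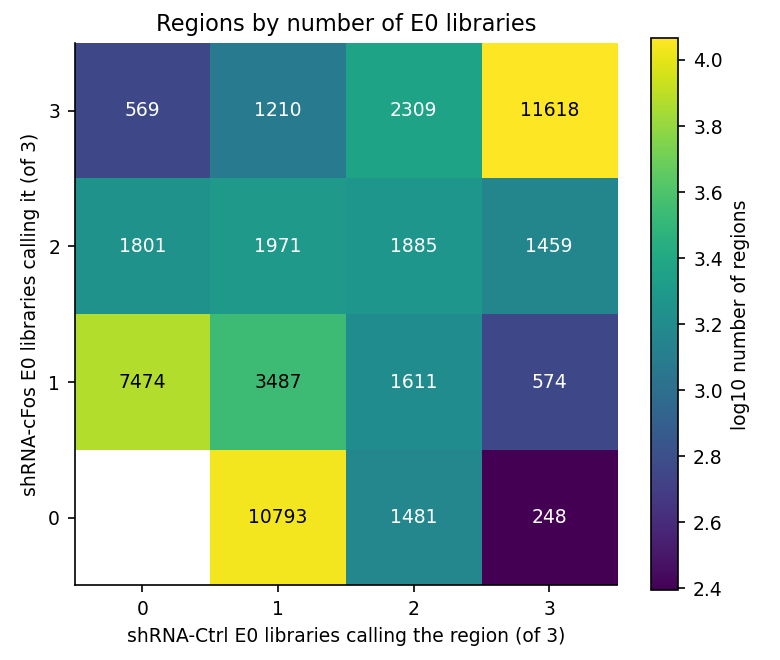
Number of regions by how many shRNA-Ctrl E0 libraries (x axis, of 3) and shRNA-cFos E0 libraries (y axis, of 3) called them, with colour on a log10 scale. Most regions sit at the corner called in all 6 libraries (11618) or along the edges called in 1 library (7474 and 10793), and the corners of complete separation hold 569 and 248.

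Without shRNA-cFos replicate 2, the longest list, 997 regions were found only in shRNA-cFos E0 and 441 only in shRNA-Ctrl E0, a ratio of 2.26. In that setting 2 calls suffice on the shRNA-cFos side. Both counts rise when fewer libraries have to meet the rule. Leaving out 1 library of each group keeps the sides balanced, and over the 9 such choices the ratio ran from 1.19 to 2.08. The lowest value came without shRNA-cFos replicate 2 and shRNA-Ctrl replicate 1, with 1423 against 1195 regions. Over the 3 balanced choices without shRNA-cFos replicate 2 the ratio ran from 1.19 to 1.58. Without shRNA-Ctrl replicate 1 alone, the one list that kept its weakest peaks, the counts were 834 and 793, and there 2 calls suffice on the shRNA-Ctrl side. Lists of 10000 peaks gave 152 and 86 regions, a ratio of 1.77.

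Whether a region was missing from the other group or merely ranked lower there differed between the directions. Of the 248 shRNA-Ctrl regions, 228 (91.9%) had a peak below the cut in at least 1 deposited shRNA-cFos list, most of them in replicate 2, where 219 (88.3%) did. In shRNA-cFos replicates 1 and 3, 74 (29.8%) and 27 (10.9%) did. That left 20 regions with a peak in all 3 shRNA-Ctrl lists and none at any score in shRNA-cFos E0. Of the 569 shRNA-cFos regions, 461 (81.0%) had no peak at any score in the deposited shRNA-Ctrl E0 lists. Those lists hold few peaks below the cut, 0, 3246 and 4374, against 49287 in shRNA-cFos replicate 2, so the 2 directions had unequal chances to be found there. A region closed in controls and a region missed in a shorter control list cannot be told apart from these files.

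Regions of both sets lay in the middle and lower part of the lists, with medians near that of all E0 regions. Over a group's 3 libraries the mean score percentile had a median of 33.6 for regions only in shRNA-cFos E0 (quartiles 24.6 and 43.8) and of 32.2 for regions only in shRNA-Ctrl E0 (22.9 and 39.5). For regions called in all 6 libraries the median was 73.9. Over all 48490 E0 regions, each averaged over the libraries that called it, the median was 32.1 (quartiles 17.3 and 51.7). The 3 shRNA-cFos libraries ranked their set alike, with medians of 35.1, 34.9 and 33.6. The shRNA-Ctrl libraries ranked theirs at 30.7, 32.7 and 27.9. Above the 50th percentile on average were 84 of the 569 regions (14.8%) and 13 of the 248 (5.24%), and above the 75th percentile 4 and 0. Among all E0 regions, 12806 (26.4%) lay above the 50th and 5613 above the 75th. Of these, 9880 and 5561 were regions called in all 6 libraries, which neither set can hold by its rule. These shares therefore do not show whether the sets held fewer high ranks than other regions that some E0 libraries lacked.

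Their widths lay between those of regions seen once and of regions seen in all. The merged regions had a median width of 787 bp in the shRNA-cFos set (quartiles 678 and 956) and 632 bp in the shRNA-Ctrl set (550 and 848). A width in the first set includes the wide peaks of shRNA-cFos replicate 2, whose median peak in these regions was 709 bp, against 521 and 459 bp in replicates 1 and 3. With at least 50% of the merged region required to be covered, the counts became 831 and 144, a ratio of 5.77.

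The differing regions were scattered. The 569 shRNA-cFos regions fell into 563 windows of 100 kb out of 18716 with any E0 region, and no window held more than 2. The 6 windows with 2 included chromosome 1 at 29600001 to 29700000, which held no other E0 region, chromosome 8 at 114400001 to 114500000 (2 of 6) and chromosome 14 at 63500001 to 63600000 (2 of 4). The 248 shRNA-Ctrl regions fell into 247 windows, and the only window with 2 lay on chromosome 2 at 110000001 to 110100000 (2 of 6). Only 9 windows held regions of both directions. The median distance to the nearest region called in all 6 libraries was 62.9 kb for the shRNA-cFos set and 63.0 kb for the shRNA-Ctrl set, against 59.1 kb over all E0 regions.

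By chromosome, the share of E0 regions found only in shRNA-cFos ran from 0.416% on chromosome 7 (7 of 1683) to 1.69% on chromosome 18 (36 of 2128). The share found only in shRNA-Ctrl ran from 0 of 890 on chromosome 19 to 0.846% on chromosome 18 (18 regions). Chromosome 18 was thus highest in both directions. Chromosome 7 was the one chromosome with more shRNA-Ctrl than shRNA-cFos regions, 8 against 7, and chromosome 19 held 7 shRNA-cFos regions and no shRNA-Ctrl region.

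Among the 569 regions that separated the E0 groups on the knockdown side, the highest mean percentile was that of chr12:63732743-63733658 (916 bp). Its score percentile was 88.8, 88.5 and 77.7 in shRNA-cFos E0 replicates 1 to 3, from scores of 404.67, 637.37 and 214.22, and no shRNA-Ctrl E0 list held a peak there at any score. At E1 it was called in 1 library only, shRNA-cFos replicate 2, at percentile 23.8. This region thus ranked high in the 3 knockdown mice at E0 and had no peak in the E0 controls. In the shortened E1 lists it was weak or without a peak, and E1 peaks below the cut are not given here.

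Several others were called in every library except those of the E0 controls. At chr18:50987592-50988999 (1408 bp) the percentiles were 83.8, 79.2 and 82.4 in shRNA-cFos E0, 82.7 and 77.8 in shRNA-cFos E1, and 69.6, 67.0 and 52.4 in shRNA-Ctrl E1. At chr10:96954948-96955920 (973 bp) they were 77.2, 84.3 and 79.0 in shRNA-cFos E0, 80.1 and 90.8 in shRNA-cFos E1, and 73.5, 85.7 and 37.8 in shRNA-Ctrl E1. At chr18:60795792-60797956 (2165 bp) they were 73.8, 79.3 and 73.1 in shRNA-cFos E0, 78.6 and 92.8 in shRNA-cFos E1, and 91.9, 90.2 and 51.1 in shRNA-Ctrl E1. All 3 regions lacked a peak at any score in the 3 shRNA-Ctrl E0 lists, and replicate 3 was the lowest of the shRNA-Ctrl E1 libraries in each.

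The remaining 6 by the same ranking lay on chromosomes 8, 5, 3, 3, 17 and 3, with mean percentiles down to 66.8. The region at chr8:64843053-64844051 had percentiles of 83.6, 69.3 and 70.6 in shRNA-cFos E0 and at most 41.2 in any E1 library. At chr3:42695844-42696712 they were 72.3, 72.3 and 55.7, and at most 32.7 at E1. In contrast, chr3:61869255-61870079 had 65.9, 76.0 and 72.5 in shRNA-cFos E0 and at least 68.9 in each of the 5 E1 libraries. It was the only one of the 10 with a peak below the cut in a control, at a score of 54.61 in shRNA-Ctrl E0 replicate 2. Of the 10, 5 were called in all 5 E1 libraries and the other 5 in some of them.

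Regions called in the 3 shRNA-Ctrl E0 libraries and in no shortened shRNA-cFos E0 list had a highest mean percentile of 58.4, against 85.0 in the other direction. At chr16:84521681-84522902 (1222 bp) the percentiles were 65.9, 46.5 and 62.9 in shRNA-Ctrl E0 replicates 1 to 3. Deposited peaks lay there in shRNA-cFos E0 replicates 2 and 3 as well, at scores of 114.27 and 53.93, below the cuts of those lists, and all 5 E1 libraries called the region at percentiles of 46.0 to 83.8. At chr10:29152765-29153384 (620 bp) the percentiles were 56.3, 63.8 and 55.1. The only shRNA-cFos E0 peak there, in replicate 2, had a score of 135.21, and only shRNA-Ctrl E1 replicate 3 called it at E1, at percentile 11.6. Raw scores of different libraries are not on a common scale, so these peaks show presence and not a level.

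The next regions were of the same kind. At chr2:76766436-76767297 the percentiles were 72.4, 62.4 and 40.3 in shRNA-Ctrl E0, and shRNA-cFos replicate 1 had a peak at a score of 52.33. At chr9:89564503-89565209 they were 61.5, 60.4 and 52.1, with all 5 E1 libraries calling the region. At chr3:141980990-141981602 they were 33.1, 74.4 and 63.0, and all 3 shRNA-cFos E0 lists held a peak below the cut. Each of the 10 highest-ranking regions in this direction had such a peak in at least 1 shRNA-cFos E0 list, whereas 9 of the 10 in the other direction had none in any control.

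**Figure D3:**
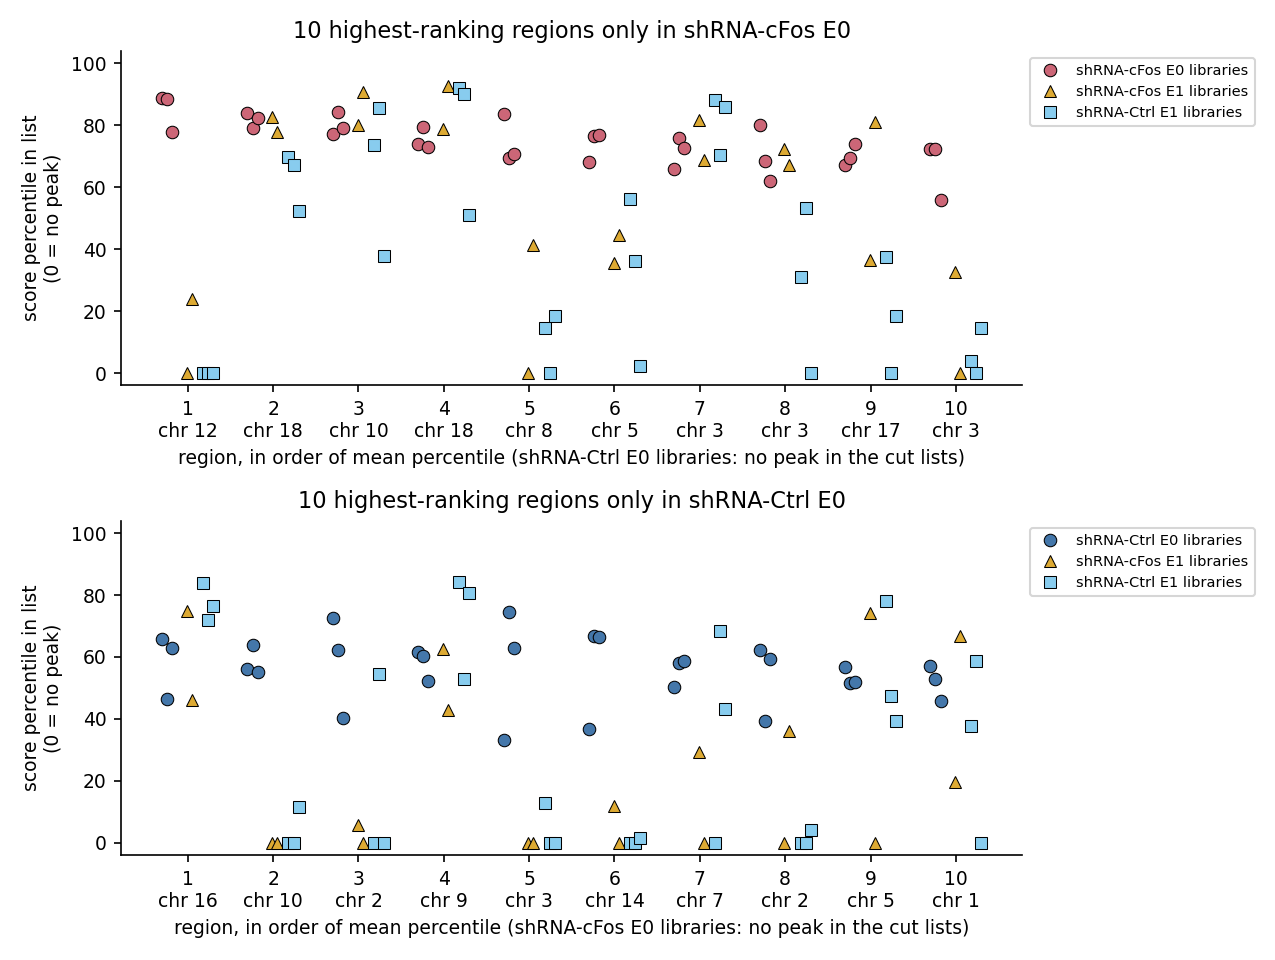
Score percentile within the list (y axis, 0 where a library had no peak) of the 10 highest-ranking regions found only in shRNA-cFos E0 (top) and only in shRNA-Ctrl E0 (bottom), each point 1 library of the group with the regions or of an E1 group. The shRNA-cFos regions lie between 55.7 and 88.8 at E0 and the shRNA-Ctrl regions between 33.1 and 74.4, and 5 and 2 of the 10 were called in all 5 E1 libraries.

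The calls of the 5 E1 libraries were not used to choose these regions, although E1 peaks helped set the bounds of the joined regions. With regions joined over the 6 E0 lists alone, the differences given next were 17.0 and -8.40 points. E1 is the second state of the study, and its groups were shRNA-cFos E1 (2 mice) and shRNA-Ctrl E1 (3 mice). Regions found only in shRNA-cFos E0 were called more often in shRNA-cFos E1, at 51.1% (95% Wilson interval 47.0 to 55.2) and 58.5% (54.4 to 62.5) in replicates 1 and 2. The shRNA-Ctrl E1 libraries called 40.4% (36.5 to 44.5), 38.0% (34.1 to 42.0) and 36.2% (32.4 to 40.2) of them. The intervals cover counting error only. The groups did not overlap, and the difference of means was 16.6 percentage points (54.8% ± 5.22, SD, n = 2, against 38.2% ± 2.12, n = 3). The two-sided exact permutation p was 0.1, the smallest that 2 against 3 allow, and 0.2 after adjustment over 2 tests. The shortened shRNA-cFos E1 lists covered more DNA, 23.5 and 22.3 Mb, than the shRNA-Ctrl E1 lists, 18.0, 17.5 and 21.9 Mb. The part of this in the calls was not tested.

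Regions found only in shRNA-Ctrl E0 leaned the opposite way. They were called at 27.0% and 25.4% in shRNA-cFos E1 and at 33.5%, 31.0% and 39.9% in shRNA-Ctrl E1. Both knockdown libraries lay below all 3 control libraries, and the difference of means was -8.60 points (exact permutation p = 0.2, adjusted p = 0.2). Over all 48490 E0 regions the shRNA-cFos E1 libraries called 44.9% and 45.2% and the shRNA-Ctrl E1 libraries 41.2%, 41.4% and 43.9%, a difference of 2.89 points in the direction of the first set and against the second. The deposited names of shRNA-Ctrl E1 replicates 1 and 3 lack a word that all other lists carry, the 6 E0 lists included. Replicate 2, which has the word, called 38.0% of the first set and 31.0% of the second and so lay below and above both shRNA-cFos E1 libraries as its group did.

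**Figure D4:**
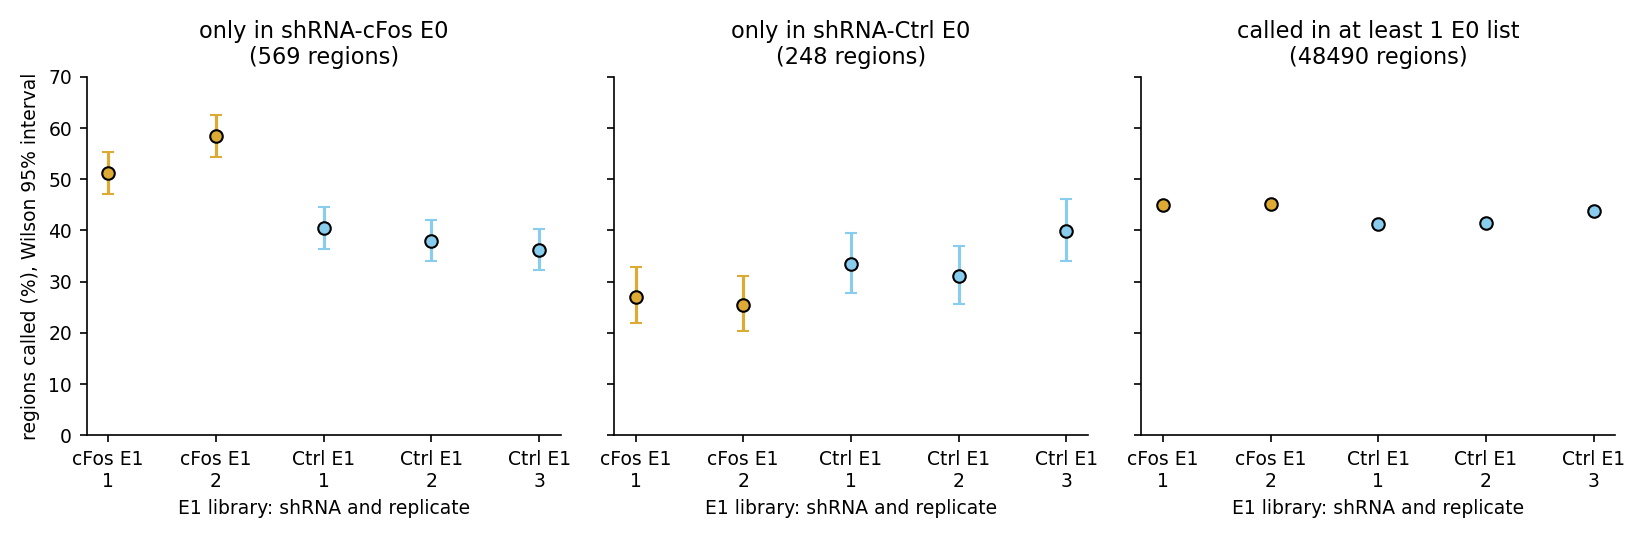
Share of regions (y axis, percent) called by each E1 library among regions found only in shRNA-cFos E0, only in shRNA-Ctrl E0, and in at least 1 E0 library, with Wilson 95% intervals for counting error. Both shRNA-cFos E1 points lie above the 3 shRNA-Ctrl E1 points in the left panel (51.1% and 58.5% against 36.2% to 40.4%) and below them in the middle one (25.4% and 27.0% against 31.0% to 39.9%).

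With the lists as deposited, the first of these differences shrank to 2.74 points (exact permutation p = 1). E1 lists of very unequal length are compared there, and the part of length in this was not tested. The second became -36.9 points (exact permutation p = 0.2), over only 28 regions.

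Few regions kept the separation by shRNA in both states. Of the 569 shRNA-cFos regions, 36 (6.33%) had a peak in shRNA-cFos E1 replicates 1 and 2 and in no shRNA-Ctrl E1 library, and 3 showed the reverse at E1. Of the 248 shRNA-Ctrl regions, 8 (3.23%) had a peak in each of the 3 shRNA-Ctrl E1 lists and in no shRNA-cFos E1 list, and 2 showed the reverse. A larger number were open throughout E1: 114 of the 569 were called in all 5 E1 libraries, as were 16 of the 248 (6.45%). No E1 library called 146 (25.7%) and 79 (31.9%) of the 2 sets. All these counts refer to the shortened lists. The share of all E0 regions with each of these E1 patterns was not determined, so the counts describe the 2 sets and not a trait particular to them.

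Among the 11618 regions called in all 6 E0 libraries, none passed the test for a difference in rank. The shRNA-cFos minus shRNA-Ctrl difference in mean score percentile had a median of -0.02 points, which ranking within lists of equal length holds near 0. It ran from -18.0 at the 5th to 18.1 at the 95th percentile of regions, and was over 10 points in size in 3096 regions (26.6%) and over 20 in 912. In limma, 0 of the 11618 regions passed a Benjamini-Hochberg adjusted p of 0.05, so percent called was 0, and the smallest adjusted p was 0.707. An unadjusted limma p under 0.05 was reached by 808 regions (6.95%), 415 higher and 393 lower under knockdown. All 3 shRNA-cFos values lay above all 3 shRNA-Ctrl values in 727 regions (6.26%) and below them in 791 (6.81%). Pairs of libraries ranked the shared regions alike, with Spearman's rho across regions from 0.747 to 0.837 over the 15 pairs, as a description of regions that are not independent.

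**Figure D5:**
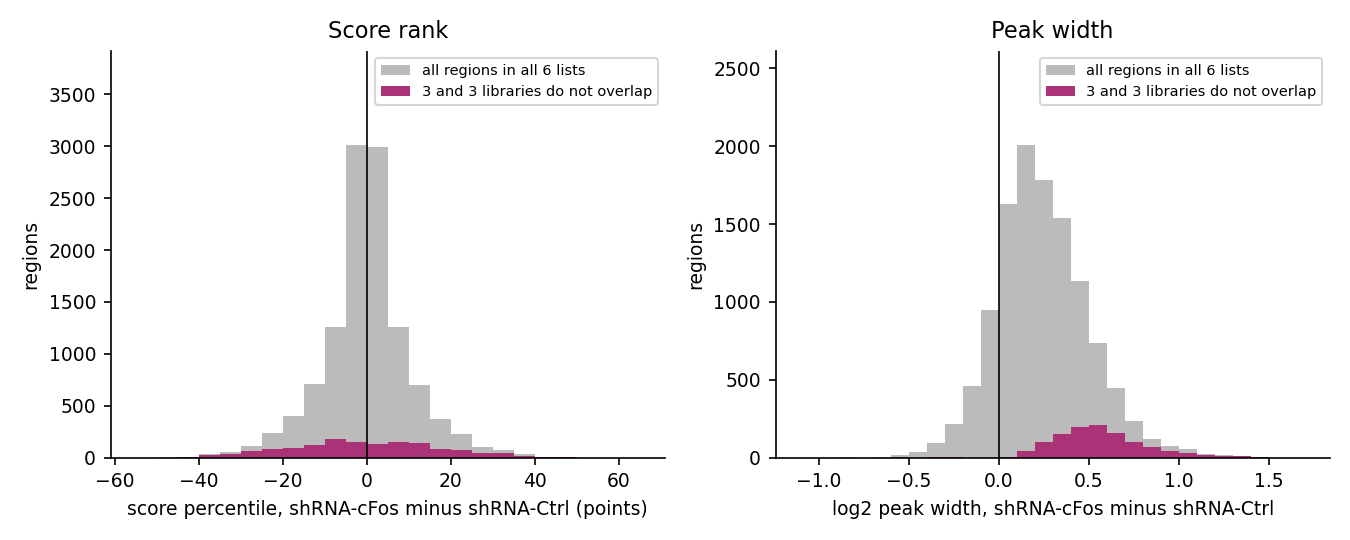
Histograms over the 11618 regions called in all 6 E0 libraries of the shRNA-cFos minus shRNA-Ctrl difference in mean score percentile (left, points) and in mean log2 peak width (right), with regions whose 3 and 3 libraries do not overlap drawn in front. Rank differences centre near 0 by construction (median -0.02), and width differences are shifted to the right (median 0.22).

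The largest rank differences among shared regions are given by locus, although none passed adjustment. At chr1:124292347-124293583 the percentiles were 86.1, 82.5 and 78.3 in shRNA-cFos E0 and 8.31, 36.0 and 20.3 in shRNA-Ctrl E0. That is a difference of 60.7 points (SE 10.9, limma adjusted p = 0.707), the largest upward one. At E1 the groups were alike there, with 71.9 and 75.9 in shRNA-cFos and 70.5, 77.6 and 49.6 in shRNA-Ctrl. So the region ranked low in the 3 E0 controls and high or intermediate in the other 8 libraries.

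A different pattern was seen at chr10:61563904-61565257. There the percentiles were 73.6, 81.6 and 62.3 in shRNA-cFos E0 and 19.4, 3.22 and 27.4 in shRNA-Ctrl E0, and 1 of the 5 E1 libraries called the region, shRNA-cFos replicate 1 at 20.3. At chr18:56447348-56448245 they were 77.6, 87.8 and 77.6 against 25.1, 35.9 and 36.8 (difference 48.4, SE 9.47, limma adjusted p = 0.707). At E1 this region again ranked higher in shRNA-cFos, at 67.3 and 78.2, than in shRNA-Ctrl, at 29.6, 53.3 and 18.2, so no shRNA-Ctrl library of either state reached the lowest shRNA-cFos library. The other 7 of the 10 largest upward differences lay on chromosomes 3, 8, 10, 6, 12, 13 and 13.

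In the downward direction, 3 of the 10 largest differences lay on chromosome X. At chrX:55756460-55757251 the percentiles were 41.3, 0.163 and 17.5 in shRNA-cFos E0 and 66.3, 76.3 and 74.2 in shRNA-Ctrl E0 (difference -52.6, SE 12.9, limma adjusted p = 0.707). At chrX:66613026-66614245 they were 8.99, 31.9 and 15.0 against 78.6, 79.7 and 42.9. At chrX:165474287-165474959 they were 22.9, 1.08 and 7.54 against 60.8, 54.5 and 39.7. Over the 417 shared regions of chromosome X the median difference was -1.38 points, and 13 regions (3.12%) were higher without overlap and 26 (6.24%) lower. Chromosome 16 was close to it, with -1.19 points over 345 regions, 3.77% higher and 9.86% lower. On chromosomes 1 to 19 together these values were 0.0106 points, 6.37% and 6.83%, so the share lower on X was not above that of the autosomes.

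Among the autosomal downward differences, chr14:67529471-67531375 (1905 bp) had percentiles of 23.8, 20.6 and 7.19 in shRNA-cFos E0 and 64.1, 64.2 and 70.1 in shRNA-Ctrl E0. At chr2:77427445-77428072 they were 11.3, 9.32 and 0.386 against 44.6, 63.7 and 40.9, and no E1 library called the region. At chr9:92069033-92069737 they were 39.1, 25.8 and 2.44 against 72.0, 60.7 and 58.1, while the 5 E1 libraries lay between 59.1 and 72.2 in both shRNA groups. The remaining 4 lay on chromosomes 1, 11, 3 and 9. The chromosome 14 region was called in 3 of the 5 E1 libraries, at 21.4 to 57.8.

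Read at E1, the upward set again ranked higher in shRNA-cFos. The median difference of the downward set was positive but below that of all regions called in the 11 libraries. Of the 727 upward regions, 631 were called in all 11 libraries. There the shRNA-cFos E1 medians were 82.8 and 81.8 and the shRNA-Ctrl E1 medians 78.4, 78.5 and 80.2, so the 2 groups did not overlap, and the median difference was 2.29 points. Of the 791 downward regions, 644 were called in all 11, and their median difference at E1 was 0.305 points. Over all 9716 regions called in the 11 libraries it was 0.915 points, between the values of the upward and downward sets. These are descriptions without a test. A direct test of whether the shRNA difference in rank changed between E0 and E1 called 0 of those 9716 regions in limma (smallest adjusted p 0.909), with 491 (5.05%) at an unadjusted p under 0.05.

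Peak width, unlike rank, is not centred by its construction. Under knockdown the difference in mean log2 width had a median of 0.22 (1.16-fold wider), and 9829 of the 11618 regions (84.6%) were wider on average. The median width of the shared peaks was 837, 1126 and 755 bp in shRNA-cFos E0 replicates 1 to 3 and 648, 729 and 889 bp in shRNA-Ctrl E0, so shRNA-cFos replicate 2 stood above all others and shRNA-Ctrl replicate 3 above the other 2 knockdown libraries. No region passed adjustment in limma (0 of 11618, smallest adjusted p 0.646). At an unadjusted p under 0.05 there were 640 (5.51%), of which 633 were wider and 7 narrower. All 3 shRNA-cFos widths exceeded all 3 shRNA-Ctrl widths in 1169 regions (10.1%), and the reverse held in 24 (0.207%). Without shRNA-cFos replicate 2, with 2 libraries against 3, the counts over these 11618 regions were 1248 wider and 450 narrower. Over the same regions both counts can only rise when a library is left out. They are therefore not comparable with those of 3 against 3 and do not show that the excess of wider regions persisted. The median difference was then 0.08 on the log2 scale over the 12102 regions called in all 5 remaining libraries.

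The largest width differences among regions without overlap are given by locus, although none passed adjustment. At chr1:42595412-42597614 the width of the highest-scoring peak was 1516, 2203 and 920 bp in shRNA-cFos E0 and 454, 522 and 438 bp in shRNA-Ctrl E0, a log2 difference of 1.63 (SE 0.32, limma adjusted p = 0.646). At chr17:47824152-47826618 the widths were 1859, 2394 and 1300 bp against 590, 521 and 735 bp. At chr10:36855731-36861490 they were 3441, 5737 and 1413 bp against 1050, 950 and 1102 bp, although its score percentile was lower under knockdown, 62.8, 46.3 and 37.2 against 72.7, 67.1 and 66.0. Rank and width thus moved in opposite directions at this locus.

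The 24 regions without overlap in the narrower direction went against the median difference. At chr2:97305853-97307861, a strong peak with percentiles of 87.7 to 94.1 in the 6 libraries, the widths were 847, 886 and 771 bp in shRNA-cFos E0 and 1378, 1546 and 1681 bp in shRNA-Ctrl E0. The log2 difference was -0.88 (SE 0.24, limma adjusted p = 0.688). At chr5:3646700-3648360 the widths were 780, 832 and 539 bp against 1274, 1462 and 1545 bp, the largest difference in this direction (-1.01, SE 0.26, limma adjusted p = 0.655). At chr15:60653552-60656955 they were 802, 960 and 712 bp against 1136, 1561 and 1905 bp.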

How the data were processed

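Dentate gyrus chromatin was profiled by ATAC-seq, and 1 peak list per library was used as deposited. Bowtie2 and the build mm9 are named in the submitters' processing notes, and the peak names carry the name MACS, per the deposited files. No source used here gives peak settings, read filters or depth. For each peak the deposited score is the authors' value, runs from 50 to 3100 and has no stated scale, and the deposited peak positions are in mm9. The reference tables at hand are of build GRCm38, so regions carry no gene names and no sequence.

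Each list was shortened to its 25145 highest-scoring peaks, with ties in file order. Counts of regions were not tested. Per-library values were compared by exact permutation tests, and the score percentile and log2 width of regions called in all 6 E0 libraries by limma 3.58.1 (R 4.3.3) with Benjamini-Hochberg adjustment. Scripts ran under Python 3.11.15 with pandas 2.3.3, scipy 1.17.1, numpy 2.4.6 and, for figures, matplotlib 3.10.9, and were tested on simulated data. Named regions are the 10 per direction with the highest mean percentile among those found in 1 group only. Also named are the 10 (rank) and 5 (width) per direction with the largest difference among shared regions without overlap, and the 3 windows of 100 kb per direction with most regions. Some of each are given. The comparison, its rules and its lists were chosen with earlier results of these data known.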

Additional observations from a re-analysis of the deposited data

How the results depend on the processing

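The count of regions found only in shRNA-cFos E0 exceeded that found only in shRNA-Ctrl E0 under all 17 other settings, and under the 9 that leave out 1 library of each group, with ratios from 1.05 to 89.7, but its size depended on them. Lists as deposited gave 1430 and 28 regions, lists of 10000 peaks 152 and 86, and lists of 15000 peaks 279 and 155. Calls in at least 2 of 3 libraries gave 2370 and 1729. The shRNA-Ctrl count alone moved to 7 with a score of at least 100, to 144 with 50% of a region covered, and to 20 with no peak in the other group's lists as deposited, a setting added after seeing the data. Without 1 library, or 1 of each group (also added), the counts ran from 834 to 2113 and from 413 to 1195. With a score of at least 100 the width difference turned to -15.3 bp and the share wider than 1 kb to -1.44 points (exact permutation p = 0.9 and 1). List similarity turned to -0.00512 without shRNA-cFos E0 replicate 2. Leaving out 1 library gave width differences of 46.3 to 198 bp, 1.15 to 5.26 Mb, 1.21 to 12.9 points, -0.64 to -0.24 points on chromosome X and similarity up to 0.0334. The E1 readings then ran from 12.9 to 20.3 and from -10.5 to -4.21 points. Over all 22 alternatives they ran from 2.74 to 21.7 and from -36.9 to 0 points. With a score of at least 100 they were 3.74 points and, over only 7 regions, -16.7 points. With groups of this size no per-library test could reach an exact permutation p under 0.1, so these p-values cannot show that a difference was absent. With lists of 10000 peaks the reading of shRNA-Ctrl regions was 0 points.

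All limma counts, for rank, width and the interaction, stayed at 0 in the 18, 16 and 16 alternatives. As deposited, 1084 regions were higher and 14 lower in rank at an unadjusted limma p under 0.05, with a median shift of 4.75 points. Percentiles in lists of unequal length are not comparable, and the part of length in this shift was not tested. With the replicate number as a block, limma again called 0 regions (379 higher and 333 lower in rank unadjusted), and the replicate block gave exact permutation p = 0.5 for median width, where the smallest possible is 0.25. Deviations of same-numbered libraries correlated at 0.0443, -0.0255 and -0.0619 over the shared regions. Those of differently numbered libraries ran from -0.0356 to 0.0655. These values show no pairing by number, but they cannot tell whether same-numbered mice were handled together. Depth is unknown and limits every statement on absence.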

Other observations

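Regions seen in a single E0 library were more frequent in the control lists, a pattern noticed after the values were seen and not tested. They made up 16.2%, 14.8% and 12.9% of the regions called by shRNA-Ctrl E0 replicates 1 to 3 and 9.59%, 8.98% and 11.5% of those called by shRNA-cFos E0 replicates 1 to 3. All 3 control lists lay above all 3 knockdown lists. The part of list length in this was not tested.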
